A study of Mus musculus with 18 samples.

Results

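Bile acid synthesis and transport was followed through 10 genes: Cyp7a1, Cyp7b1, Cyp8b1, Cyp27a1, Nr0b2, Nr1h4, Abcb11, Slc10a1, Abcg5 and Abcg8. They were picked by name for their place in the pathway, with earlier results of these data known. All 10 were among the 15572 genes of the RNA-seq transcript table and the 26180 genes with a RefSeq transcript on the mouse genome. JMJD1C is a JmjC-domain protein reported to remove methyl groups from lysine 9 of histone H3. Liver was taken from C57BL/6J mice that were wild type (WT) or carried a floxed Jmjd1c allele deleted by a Cre recombinase under the albumin promoter, which is active in hepatocytes (JMJD1C-LKO), and WT mice were littermates. RNA-seq compared refed WT with refed JMJD1C-LKO livers, with 2 libraries per group that were each made from pooled RNA. ATAC-seq, which maps accessible chromatin, was made from 2 fasted WT, 2 refed WT and 2 refed JMJD1C-LKO livers, and ChIP-seq for H3K9me2, dimethylated lysine 9 of histone H3, from 2 fasted and 2 refed WT livers with their inputs. In the peak assays each sample was 1 mouse. By the labels all mice were kept on chow for 6 to 8 weeks. All were then fasted overnight, and refed animals then ate a high-carbohydrate diet, for 6 h by the labels and for 8 to 16 h by the general methods, which also give an age of 12 weeks and a fat-free diet. The labels describe refeeding for every sample, so the fasted state rests on the sample titles, the peak names and the reporting summary.

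Hepatocytes turn cholesterol into bile acids, which carry fat and sterols into the intestine and return to the liver with portal blood. Cyp7a1 opens the classic route, Cyp27a1 and Cyp7b1 serve the alternative route that starts on the cholesterol side chain, and Cyp8b1 adds the hydroxyl group that makes cholic acid. The nuclear receptor FXR, encoded by Nr1h4, senses bile acids and induces the corepressor SHP, encoded by Nr0b2, which in turn holds down Cyp7a1 and Cyp8b1. Abcb11 (the bile salt export pump) moves bile acids into bile, Slc10a1 (NTCP) takes them back from blood, and Abcg5 and Abcg8 form 1 heterodimer that exports sterols into bile under control of the oxysterol receptor LXR.

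The bases before the transcription start are shown for 3 of these genes and for the gap between the divergent Abcg5 and Abcg8 starts. The H3K9me2 summits described below lie near these starts, and also near those of genes whose windows are not printed. Each printed stretch holds a match to a motif listed below, so the printed stretches do not stand for all windows. Most of the Abcg8 counts were assigned to a transcript from an outer start, which is not the one at the gap. They come from the RefSeq promoter table for GRCm38.p6 (mm10), which holds 10 windows of 8 of the genes, running from 250 bases before to 50 after a start. Only bases before a start are printed, on the strand of the gene (plus strand for the gap), and capitals mark every match to CACGTG, an E-box of the kind that USF-1 binds, to the TATA box TATAAA, to the nuclear receptor half-site AGGTCA, to the NR5A2-type sites CAAGGTCA and CAAGGCCA, and to the HNF4A-type site CAAAGTCCA, searched on both strands. AGGTCA lies inside CAAGGTCA, so the 2 searches are not independent.
Cyp8b1 (chr9:121916306-121916555, minus strand): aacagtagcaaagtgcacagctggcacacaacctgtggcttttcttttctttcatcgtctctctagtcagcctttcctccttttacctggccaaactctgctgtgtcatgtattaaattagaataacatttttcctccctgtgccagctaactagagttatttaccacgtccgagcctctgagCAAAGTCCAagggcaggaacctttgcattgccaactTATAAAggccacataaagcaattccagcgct
Nr0b2 (chr4:133553126-133553375, plus strand): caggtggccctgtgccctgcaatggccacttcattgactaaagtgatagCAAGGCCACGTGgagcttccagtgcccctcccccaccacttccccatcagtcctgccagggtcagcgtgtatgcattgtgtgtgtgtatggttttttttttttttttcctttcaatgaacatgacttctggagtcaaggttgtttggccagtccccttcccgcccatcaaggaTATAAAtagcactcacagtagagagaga
Abcb11 (chr2:69342617-69342866, minus strand): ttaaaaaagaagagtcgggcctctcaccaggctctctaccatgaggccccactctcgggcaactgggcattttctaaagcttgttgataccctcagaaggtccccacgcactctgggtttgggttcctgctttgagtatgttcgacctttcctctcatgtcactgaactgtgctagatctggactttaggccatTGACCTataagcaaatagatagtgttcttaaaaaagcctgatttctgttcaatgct
Abcg5-Abcg8 gap (chr17:84683012-84683120, plus strand): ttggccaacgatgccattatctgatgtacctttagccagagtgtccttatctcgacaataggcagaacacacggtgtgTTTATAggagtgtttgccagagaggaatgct
Cyp8b1 holds a TATA box 31 bases before its start and CAAAGTCCA 67 bases before it, letters found in 0.475% of the 32851 promoter windows of the table. Nr0b2 holds a TATA box 28 bases before its start, and CAAGGCCA begins 201 bases before it and overlaps an E-box. CAAGGCCA is in 2.4% and CACGTG in 7.15% of all windows. Abcb11 has AGGTCA on the opposite strand 56 bases before its start, and the same letters stand in windows of Nr1h4 and Slc10a1, against 16.3% of all windows. The single TATAAA of the gap reads along the strand of Abcg5, 84 bases before its start, and lies 31 bases before the inner Abcg8 start. TATAAA was present in 5 of the 10 windows, those of Cyp8b1, Nr0b2, Slc10a1, Abcg5 and Abcg8, and in 13.6% of all windows. The windows of Abcg5 and Abcg8 hold the same match, so these 5 are not independent. The match of Slc10a1 is on the opposite strand, 128 bases before its upstream start. Cyp27a1 and the outer Abcg8 window held none of the letters searched. These matches are descriptions of the sequence and no evidence of binding.

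The 4 RNA-seq libraries held between 51265128 and 54400509 estimated counts. Levels below are given as CPM, which are counts scaled to the TMM-adjusted size of each library, and a gene was called when the Benjamini-Hochberg adjusted p of edgeR's quasi-likelihood test over 14151 genes was below 0.05. Jmjd1c itself had 22.0 and 22.8 CPM in the WT libraries and 20.0 and 20.5 CPM in those labelled JMJD1C-LKO. The JMJD1C-LKO levels lay just under the WT levels, with a log2 fold change of -0.14 ± 0.08 (SE, n = 2 per group) and an edgeR adjusted p of 0.233. The targeted gene was thus not called, and its groups did not overlap, as in 67.5% of all genes tested. Of its transcripts, NM_207221 differed by 0.10 and NM_001242396 by -0.81 on the log2 scale, neither past the threshold, and which exons were deleted is not given in the sources used here. JMJD1C-LKO is therefore used below as the label of the libraries, and each direction rests on that label. p-values measure the spread between 2 pools per group.

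Of the 10 genes, 6 were higher in the libraries labelled JMJD1C-LKO (Cyp7b1, Cyp8b1, Cyp27a1, Nr0b2, Abcg5 and Abcg8), 2 were lower (Cyp7a1 and Nr1h4) and 2 were not called (Abcb11 and Slc10a1). Without either WT library 4 were called higher and 2 lower, and without JMJD1C-LKO replicate 1 there were 6 and 3. Over all genes tested, 14.6% were called higher and 13.4% lower. The median log2 fold change was 0.48 over the 10 genes and 0.01 over all 14151. The 2 groups did not overlap in 9 of the 10 genes, and in 67.5% of all genes tested.

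**Figure D1:**
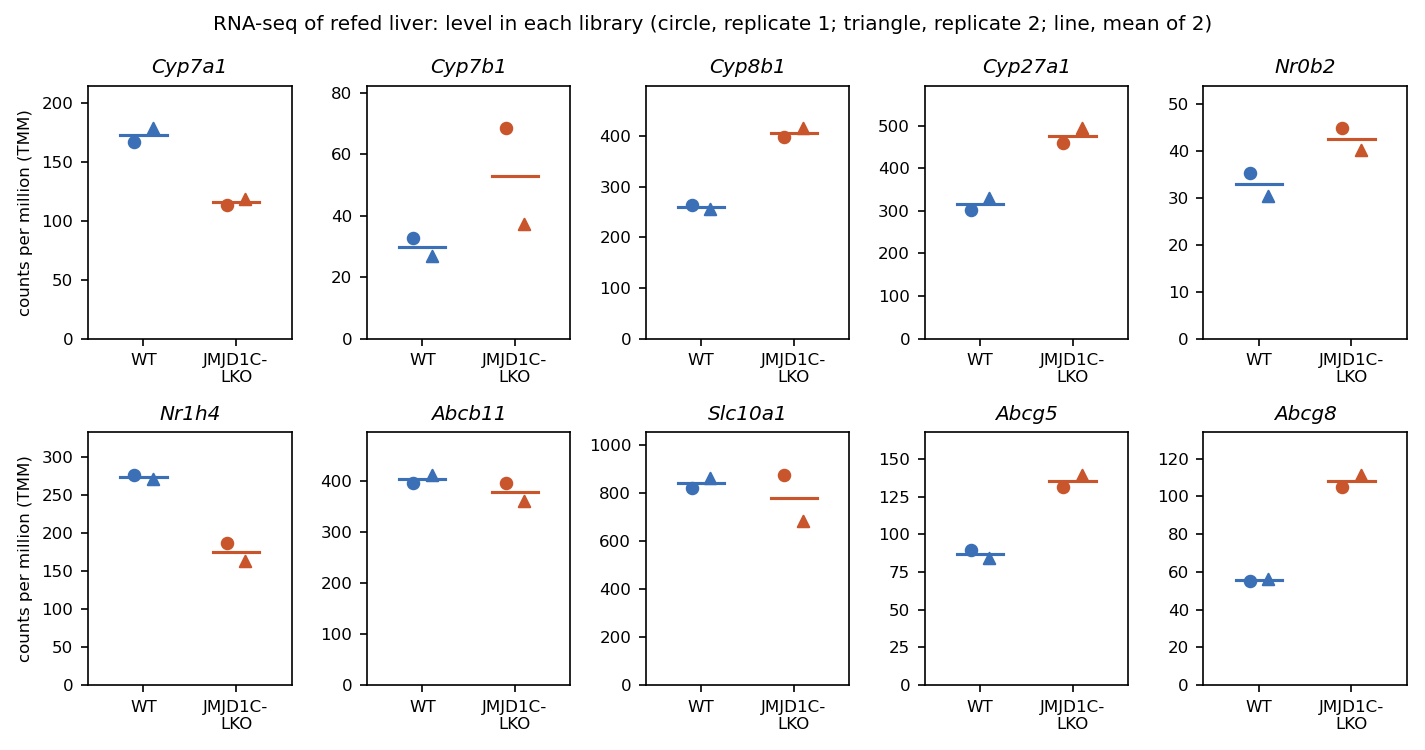
Level of each of the 10 genes in the refed liver RNA-seq, in CPM on axes that start at 0. Circles are replicate 1 and triangles replicate 2 of each group, and lines are means of 2 libraries. Cyp7a1 and Nr1h4 sit lower in the libraries labelled JMJD1C-LKO, Slc10a1 overlaps, and Cyp7b1 is split by its JMJD1C-LKO pair at 68.4 and 37.4.

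Per length, as TPM computed from the counts and RefSeq transcript lengths and scaled to the same total in each library, the uptake transporter Slc10a1 was the most abundant of the 10 genes in WT liver with a mean of 864 TPM. Cyp27a1 (281 TPM), Nr1h4 (233 TPM), Cyp8b1 (228 TPM), Abcb11 (142 TPM), Cyp7a1 (70.9 TPM), Abcg5 (61.8 TPM), Nr0b2 (44.0 TPM), Abcg8 (27.5 TPM) and Cyp7b1 (23.5 TPM) followed in that order. No neighbours in this order overlapped between the 2 WT libraries. In the JMJD1C-LKO libraries Cyp27a1 (416 TPM) and Cyp8b1 (352 TPM) came after Slc10a1 (783 TPM), and Nr1h4 had moved to 146 TPM. There Abcg8 overlapped Nr0b2, and the wide range of Cyp7b1, from 29.8 to 52.0 TPM, overlapped both Abcg8 and Cyp7a1.

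Cyp7a1 (chr4:6265612-6275632, minus strand), the rate-limiting enzyme of the classic route, had 166 and 178 CPM in the WT libraries and 114 and 118 CPM in the JMJD1C-LKO libraries. Both JMJD1C-LKO libraries lay below both WT libraries. The log2 fold change was -0.57 ± 0.08 with an edgeR adjusted p of 0.00113. Cyp8b1 (chr9:121914356-121916305, minus strand), the sterol hydroxylase that acts after Cyp7a1, moved the other way. It had 263 and 255 CPM in WT and 397 and 416 CPM in JMJD1C-LKO libraries, a log2 fold change of 0.65 ± 0.08 (edgeR adjusted p of 0.000556).

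On the alternative route, Cyp27a1 (chr1:74713535-74737897, plus strand), the mitochondrial sterol hydroxylase, had 303 and 331 CPM in WT and 459 and 495 CPM in JMJD1C-LKO libraries. The groups were well apart, with a log2 fold change of 0.59 ± 0.09 and an edgeR adjusted p of 0.00143. Cyp7b1 (chr3:18071950-18243338, minus strand), an oxysterol hydroxylase, had 32.6 and 26.8 CPM in WT and 68.4 and 37.4 CPM in JMJD1C-LKO libraries. Replicate 1 of the JMJD1C-LKO pair stood far above the other 3 libraries. The log2 fold change was 0.83 ± 0.22 (edgeR adjusted p of 0.0220), and it was 0.32 without JMJD1C-LKO replicate 1 and 1.20 without replicate 2. The call was lost with DESeq2 (adjusted p of 0.173), in the edgeR fit per transcript (adjusted p of 0.164) and without either WT library. Cyp7b1 is a male-biased gene of mouse liver, and other male-biased genes were also higher in replicate 1 than in replicate 2 of the JMJD1C-LKO pair. Mup20 had 1731, 1841, 4295 and 2691 CPM and Cyp4a12b 49.3, 39.2, 104 and 68.5 CPM in WT 1, WT 2, JMJD1C-LKO 1 and JMJD1C-LKO 2. Of the 17 sex-linked and sex-biased genes tested, 5 were higher and 4 lower (14.6% and 13.4% over all genes). The list mixes genes biased to either sex, so these counts give no direction of sex bias. Their summed level was 3594 to 3604 CPM in WT and 4821 to 6907 CPM in JMJD1C-LKO libraries. Mup20 was the largest part of this sum, which therefore does not describe the list as a whole. The part of these genes in the Cyp7b1 result was not tested.

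The 17 other synthesis and conjugation enzymes tested, of 18 listed, held 4 called higher and 0 lower (14.6% and 13.4% over all genes). Their median log2 fold change was 0.06. Against these 0 lower calls of edgeR, 3 of the genes were lower at an unadjusted p below 0.05 and DESeq2 called 1 lower. Without WT replicate 1 or 2, edgeR called 0 or 1 higher, without JMJD1C-LKO replicate 1 it called 4 lower, and without JMJD1C-LKO replicate 2 it called 2 higher and 1 lower. Slc27a5, the ligase that activates bile acids for conjugation, had 765 and 784 CPM in WT and 1078 and 1073 CPM in JMJD1C-LKO libraries, a log2 fold change of 0.47 ± 0.08 (edgeR adjusted p of 0.00279). Hsd3b7, which acts on the sterol ring after the first hydroxylation, changed by 0.31, the oxysterol hydroxylase Cyp39a1 by 0.44 and the peroxisomal thioesterase Acot8 by 0.27 on the log2 scale. The abundant Scp2 (0.11), Slc27a2 (0.10) and Cyp2a12 (-0.09) were not called.

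Nr1h4 (chr10:89454234-89533622, minus strand), the bile acid receptor FXR, had 277 and 270 CPM in WT and 187 and 163 CPM in JMJD1C-LKO libraries. The JMJD1C-LKO libraries were both far below WT, with a log2 fold change of -0.65 ± 0.09 (edgeR adjusted p of 0.00108). Its 3 transcripts, which use 2 starts, all had negative values, -0.54 for NM_001163504, -0.80 for NM_001163700 and -0.59 for NM_009108. Fitted transcript by transcript, of these only NM_009108 passed the threshold, with an adjusted p of 0.0331. Nr0b2 (chr4:133553376-133556686, plus strand), the corepressor SHP, had 35.3 and 30.5 CPM in WT and 44.9 and 40.2 CPM in JMJD1C-LKO libraries. Both JMJD1C-LKO libraries lay above both WT libraries, and the log2 fold change was 0.37 ± 0.10 (edgeR adjusted p of 0.0199). Nr0b2 lost its call without either WT library, in the edgeR fit per transcript (adjusted p of 0.119) and when a log2 fold change of at least 0.5 was required. So in the libraries labelled JMJD1C-LKO the receptor was lower while its corepressor target was higher.

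Among 16 other regulators tested, 3 were higher and 3 lower (14.6% and 13.4% over all genes), with a median log2 fold change of 0.05. Without WT replicate 1 the counts were 1 higher and 0 lower, and without WT replicate 2 they were 1 and 1. The nuclear receptor Nr5a2 (LRH-1), which drives Cyp7a1 and Cyp8b1, rose by 0.35 ± 0.10 on the log2 scale from 23.4 and 25.9 CPM to 33.3 and 29.5 CPM. Rxrb, a partner of FXR and LXR, changed by 0.28. Vdr, the vitamin D receptor, was nearly silent, with 2 and 0 counts in WT and 22 and 33 counts in JMJD1C-LKO libraries. The hepatocyte factor Foxa2 (-0.60) and the receptor Nr1i3 (CAR, -0.34) were among the lower ones. Hnf4a, a direct activator of bile acid genes, had a value of -0.12, Rxra 0.19 and the deubiquitinase Usp2 0.20, none of them called. The hormone Fgf15, the receptor Gpbar1 and the basolateral exporter subunit Slc51a were not analysed here.

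Known FXR target genes held 5 higher and 0 lower of 12 tested by edgeR (14.6% and 13.4% over all genes). Their median was 0.13 on the log2 scale. No gene of this list was lower at an unadjusted p below 0.05 (0 of 12), and DESeq2 called 0 lower as well. Without either WT library edgeR called 1 higher, and without JMJD1C-LKO replicate 1 it called 2 lower. Those higher were Apoc2 (0.61), an activator of lipoprotein lipase, Pltp (0.65), the phospholipid transfer protein, Slc27a5 (0.47), Nr0b2 (0.37) and the heparan sulfate proteoglycan Sdc1 (0.33). Abcb11, Abcb4 and Baat, the most abundant of the targets that were not called, had values of -0.10, 0.12 and -0.15.

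Abcb11 (chr2:69238282-69342616, minus strand) had 397 and 413 CPM in WT and 397 and 360 CPM in JMJD1C-LKO libraries. WT replicate 1 and JMJD1C-LKO replicate 1 were almost equal, and the log2 fold change was -0.10 ± 0.08 (edgeR adjusted p of 0.426). Slc10a1 (chr12:80953185-80968705, minus strand) had 818 and 862 CPM in WT and 875 and 683 CPM in JMJD1C-LKO libraries. The JMJD1C-LKO libraries lay on both sides of the WT pair, with a log2 fold change of -0.11 ± 0.11 (edgeR adjusted p of 0.517). Without JMJD1C-LKO replicate 1 Slc10a1 was called lower (-0.31), and without replicate 2 its value was 0.06, with adjusted p between 0.0176 and 0.807 over 10 alternatives. Transcript NM_001177561 made up 97.8% of its counts in WT and 98.8% in JMJD1C-LKO libraries, and the minor NM_011387 had a log2 fold change of -0.94 (adjusted p of 0.0586 in the fit per transcript).

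Of 17 other hepatic transporters tested 3 were higher and 1 lower (14.6% and 13.4% over all genes). Their median log2 fold change was 0.12. Without either WT library 1 was called higher, and without JMJD1C-LKO replicate 1 there were 3 called lower. Slc22a7 (OAT2), an organic anion carrier of low level here, had 4.34 and 4.35 CPM in WT and 14.3 and 14.0 CPM in JMJD1C-LKO libraries. Its log2 fold change of 1.70 ± 0.12 was the highest of the list (edgeR adjusted p of 4.49e-05). Abcc3 (MRP3), which returns bile acid conjugates to blood, rose by 0.44 and the uptake carrier Slco1a4 by 0.68. Ephx1, an epoxide hydrolase that has also been described as a bile acid carrier, went from 847 and 863 CPM to 497 and 458 CPM, a log2 fold change of -0.84. The uptake carrier Slco1b2 (0.07) and the phospholipid floppase Abcb4 were not called.

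Abcg5 (chr17:84658174-84683011, minus strand) had 89.6 and 84.1 CPM in WT and 132 and 140 CPM in JMJD1C-LKO libraries. Its partner Abcg8 (chr17:84676302-84700333, plus strand) had 55.0 and 56.3 CPM in WT and 105 and 112 CPM in JMJD1C-LKO libraries. Both half-transporters were higher in both JMJD1C-LKO libraries than in either WT library. The log2 fold change was 0.64 ± 0.08 for Abcg5 (edgeR adjusted p of 0.000648) and 0.96 ± 0.08 for Abcg8 (edgeR adjusted p of 7.97e-05). With all 4 libraries Abcg8 had the largest ratio of the 10 genes, 1.94, but without JMJD1C-LKO replicate 2 its log2 fold change of 0.92 was below the 1.20 of Cyp7b1. The start of Abcg5 and the inner start of Abcg8 face away from each other with 110 bp between them, but the outer Abcg8 start lies inside Abcg5, so that the annotated genes overlap by 6710 bp on opposite strands. NM_001286005, which uses the outer start, took 61.3% of the Abcg8 counts in WT and 62.1% in JMJD1C-LKO libraries. Whether strand was used in counting is not given in the sources used here, and without it reads of the 2 genes in the overlap cannot be told apart. The 2 coding transcripts from the inner start had values of 1.14 for NM_001347418 and 1.01 for NM_026180, with adjusted p of 0.0583 and 0.0873 in the fit per transcript.

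LXR target genes, to which Abcg5, Abcg8 and in mice Cyp7a1 belong, held 7 higher and 1 lower of 11 tested. Over all genes these shares were 14.6% and 13.4%. The median log2 fold change of the LXR targets was 0.64. Without either WT library 4 were called higher, and without JMJD1C-LKO replicate 1 there were 2 called lower. Scd1, the stearoyl-CoA desaturase, went from 369 and 354 CPM to 1315 and 1571 CPM, a 3.99-fold rise (edgeR adjusted p of 1.01e-05). The sterol exporter Abcg1 rose by 1.35, from a low level of 4.80 and 5.20 CPM in WT to 11.3 and 14.1 CPM. Pltp rose by 0.65, and Cyp7a1 was the single member called lower. Abca1 (0.04) and the receptor gene Nr1h3 itself (0.02) were not called, and the value of Srebf1 was near 0 with a sign that depended on the scaling. Among genes of sterol uptake and esterification the median was 0.17. Of 11 tested, 5 were higher and 3 lower (14.6% and 13.4% over all genes). Without either WT library these counts were 2 and 1. The HDL receptor Scarb1 (0.76), Lrp1 (0.63) and the lysosomal sterol exporters Npc1 (0.39) and Npc2 (0.50) rose. The acyltransferase Soat1 (1.21) rose from a low level of 2.30 and 2.13 CPM in WT to 3.93 and 6.28 CPM. The sterol carrier Stard4 (-0.61) fell. Lcat (-0.04) and Stard5 (0.17) were not called.

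**Figure D2:**
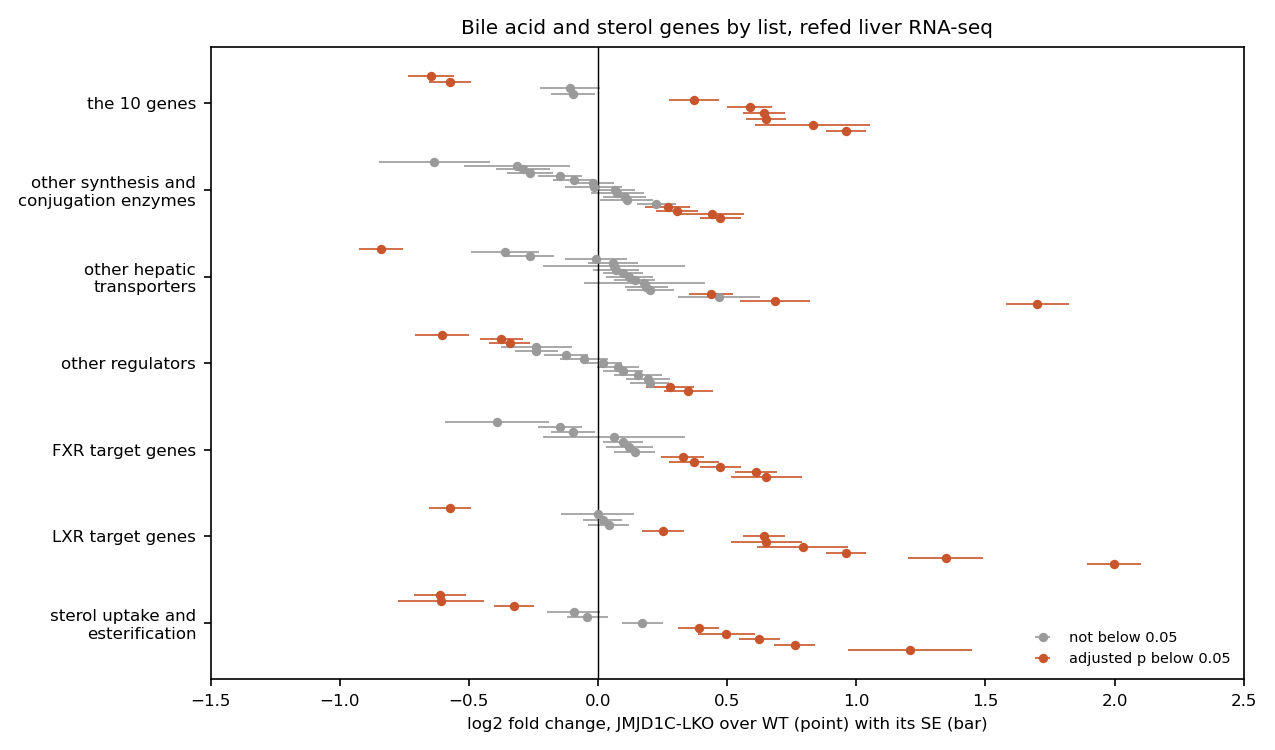
Log2 fold change of JMJD1C-LKO over WT libraries, with SE as bars, for each tested gene of 7 lists, orange where the edgeR adjusted p was below 0.05 and grey otherwise. Vdr, with 2 and 0 counts in WT, lies outside the axis and is not drawn, and genes in 2 lists are drawn in both. The 10 genes spread from -0.65 to 0.96, and 7 of 11 LXR targets are orange to the right of 0.

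Other cells of the liver express some of these genes, and in whole tissue a change in the number of cells of a type cannot be told apart from a change in RNA per cell. Kupffer and immune markers were higher for 6 of 8 genes tested, their sum was 128 to 132 CPM in WT and 223 to 304 CPM in JMJD1C-LKO libraries, and none was at 0. JMJD1C-LKO replicate 2 was the higher of its pair for this sum. Endothelial and stellate markers were higher for 4 of 8, with a sum of 101 to 106 CPM in WT and 130 to 168 CPM in JMJD1C-LKO libraries. The part of these cells in the results was not tested. Cholangiocyte markers, which would mark bile ducts, were lower for 1 of 7 tested, with sums of 54.3 to 57.1 CPM in WT and 50.1 to 51.3 CPM in JMJD1C-LKO libraries, and intestine and pancreas markers were higher for 1 of 4. Hepatocyte markers were higher for 4 of 10, pericentral markers higher for 4 of 8 and periportal markers higher for 3 of 8. The shares over all genes, to be set beside each marker list, were 14.6% higher and 13.4% lower. Alb, the gene of albumin, stood at 71445 to 86053 CPM in the 4 libraries. Cyp7a1 follows the daily clock, and of 14 clock genes tested 2 were higher and 4 lower. Ciart (0.60) and Per1 (0.40) were higher, and Per2 (-0.48), Per3 (-0.46), Nr1d1 (-0.37) and Dbp (-0.44) were lower. The sum of the clock genes was 868 to 896 CPM in WT and 744 to 795 CPM in JMJD1C-LKO libraries, and its part in the Cyp7a1 result was not tested.

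In the chromatin assays a gene was counted when a called summit, the single highest position of a peak, lay within 1000 bp of one of its RefSeq starts. None of the 10 genes had such an ATAC-seq summit in any of the 6 livers. Over all annotated genes, 4.36% had one in both fasted WT livers, 4.78% in both refed WT livers and 0.397% in both refed JMJD1C-LKO livers. In single livers, 3147 and 1436 of the 26180 annotated genes had one in fasted WT, 2602 and 1633 in refed WT and 1062 and 232 in refed JMJD1C-LKO mice. Among the 3997 genes whose mean level in WT RNA-seq was at least that of the lowest of the 10 genes (29.7 CPM), the share per liver was, in the same order, 23.5%, 11.3%, 19.4%, 13.2%, 7.41% and 1.78%. The summit lists are therefore sparse even for well expressed genes, and the absence of a listed summit does not show that these starts were closed. The count of genes with a summit in both livers of a group stayed at 0 with windows of 500 or 2500 bp and with gene bodies extended by 5000 bp, and at 1000 bp it was also 0 with either liver in place of both. Inside gene bodies, single livers had a summit in an intron of Nr1h4 (fasted replicate 1, chr10:89458983) and in an intron of Abcg8 (fasted replicate 2, chr17:84689513).

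The nearest ATAC-seq summit lay between 6392 bp (Abcg8) and 2661181 bp (Nr1h4) from a start, depending on gene and liver. For Abcg8 the nearest summit was 107574 to 107617 bp away in 5 livers and 6392 bp away in fasted replicate 2. For Abcb11 the nearest summit was at nearly the same place in all 6 livers, between chr2:69355583 and chr2:69355621, from 12967 to 13005 bp upstream of its start. Abcb11 was the nearest annotated gene start to this site on chr2, and Dhrs9 the next at 24879 bp. The summit at this site scored above 99.6% of the list in fasted WT replicate 1, and in all 6 livers above at least 94.8% of its list. H3K9me2 refed replicate 1 had a summit there too, at chr2:69355586 with a score of 31.8. The 201 bases around the first of these positions are shown because 129 of them, in capitals, form 1 run whose every stretch of 25 bases also occurs in the mitochondrial genome.
Site upstream of Abcb11 (chr2:69355483-69355683, plus strand): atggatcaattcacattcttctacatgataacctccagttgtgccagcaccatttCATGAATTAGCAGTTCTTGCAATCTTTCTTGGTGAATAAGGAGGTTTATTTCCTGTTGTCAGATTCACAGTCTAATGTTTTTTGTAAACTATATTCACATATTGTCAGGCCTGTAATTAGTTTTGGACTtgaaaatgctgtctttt
Reads of mitochondrial DNA can align to such a copy, and which genome the reads came from was not tested.

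**Figure D3:**
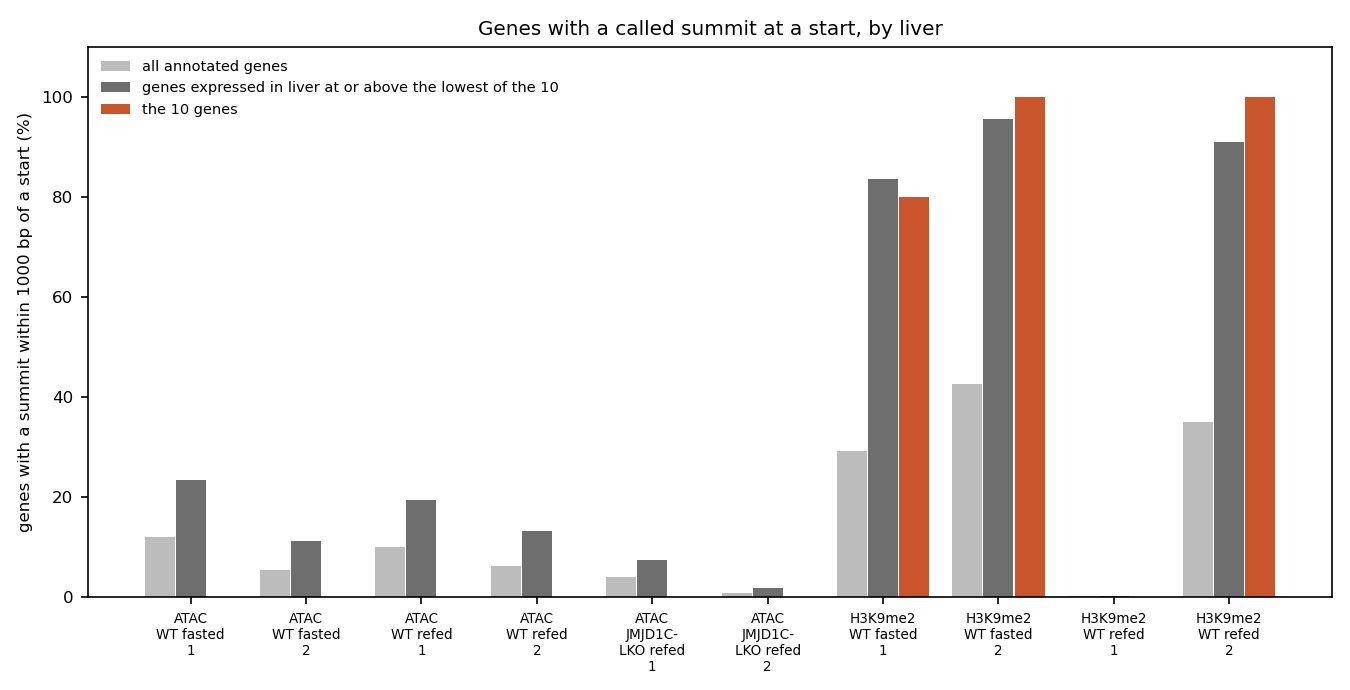
Share of genes with a called summit within 1000 bp of a start in each of 10 livers, in percent, for all 26180 annotated genes, for 3997 genes expressed at or above 29.7 CPM and for the 10 genes. The 10 genes have no ATAC-seq bar in any liver, and in H3K9me2 they reach 8 of 10 in fasted replicate 1, all 10 in fasted replicate 2 and refed replicate 2, and 0 in refed replicate 1.

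H3K9me2 is best known as a mark of silent chromatin. At the starts of the 10 genes, H3K9me2 summits were listed for 8 in fasted WT replicate 1, 10 in fasted WT replicate 2, 0 in refed WT replicate 1 and 10 in refed WT replicate 2. In both livers of a group this made 8 genes in the fasted state, against 29.1% of annotated genes, and 0 in the refed state, against 0.042%. The refed value rests on replicate 1, which stood apart from the other H3K9me2 samples. It had 1297 summits where the others had 7690 to 13456, and 2.08% of them lay within 200 bp of a summit of another H3K9me2 sample, against 64.9% to 90.6% for the others. Without it, all 10 genes carried a summit in the refed state, as they did in fasted replicate 2. Genes expressed at 29.7 CPM or more had a summit at a start in 83.7%, 95.6% and 91.0% in fasted 1, fasted 2 and refed 2, and a count of 8 to 10 of 10 is near these shares.

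Cyp7a1 and Cyp8b1 were the 2 genes without a summit within 1000 bp in fasted replicate 1. Cyp8b1 had one there outside this window, 1602 bp downstream in an exon, which scored above 92.9% of the list and was counted with the window of 2500 bp. In fasted replicate 2 their summits were also the farthest from the start, 856 bp downstream for Cyp7a1 and 726 bp for Cyp8b1. In refed replicate 2 they lay at 293 and 591 bp. Their scores, which were compared only by rank within a sample, were above 31.6% (Cyp7a1) and 65.8% (Cyp8b1) of the list in fasted replicate 2, and above 22.5% and 41.2% in refed replicate 2. Where a gene had several summits within 1000 bp, the highest-scoring one is given. Nr1h4 scored above 95.2%, 99.1% and 87.6% of the list in fasted 1, fasted 2 and refed 2, in an intron in each. Slc10a1 (80.9%, 97.6% and 93.8%) and Cyp27a1 (68.6%, 96.0% and 97.9%) were also high. The score of Nr0b2 went from above 32.9% and 54.8% in the fasted livers to above 97.9% of the list in refed replicate 2, while that of Cyp7b1 went from 47.0% and 59.6% to 16.4%. With 1 usable refed liver these shifts have no replicate check and were not tested.

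The highest-scoring summits lay downstream of the start for all but 1 of the genes listed in each of these 3 livers, with medians of 243.5, 317.5 and 329 bp in fasted 1, fasted 2 and refed 2. Over every listed summit within 1000 bp of its nearest start, not only the highest-scoring one of a gene, the medians were 267, 226 and 267 bp. Of all those summits 88.6%, 83.2% and 86.5% lay downstream in the same livers, and the listed genes were near these shares. The exception in each liver was a summit shared by Abcg5 and Abcg8, upstream of 1 start and downstream of the other. Abcg5 and Abcg8 shared their summits, since their starts are 110 bp apart. Fasted replicate 1 had 1 summit, 207 bp downstream of the inner Abcg8 start, which scored above 23.2% of the list. Fasted replicate 2 had one on each side, 250 bp downstream of the inner Abcg8 start and 365 bp downstream of the Abcg5 start, with nearly equal scores, above 46.8% and 45.5% of the list. Refed replicate 2 had 3, of which that on the Abcg5 side, 398 bp downstream, scored above 41.0% of the list and those on the Abcg8 side, 147 and 764 bp downstream, above 9.48% and 25.6%. Both sides thus held summits in a fasted and in the refed liver.

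**Figure D4:**
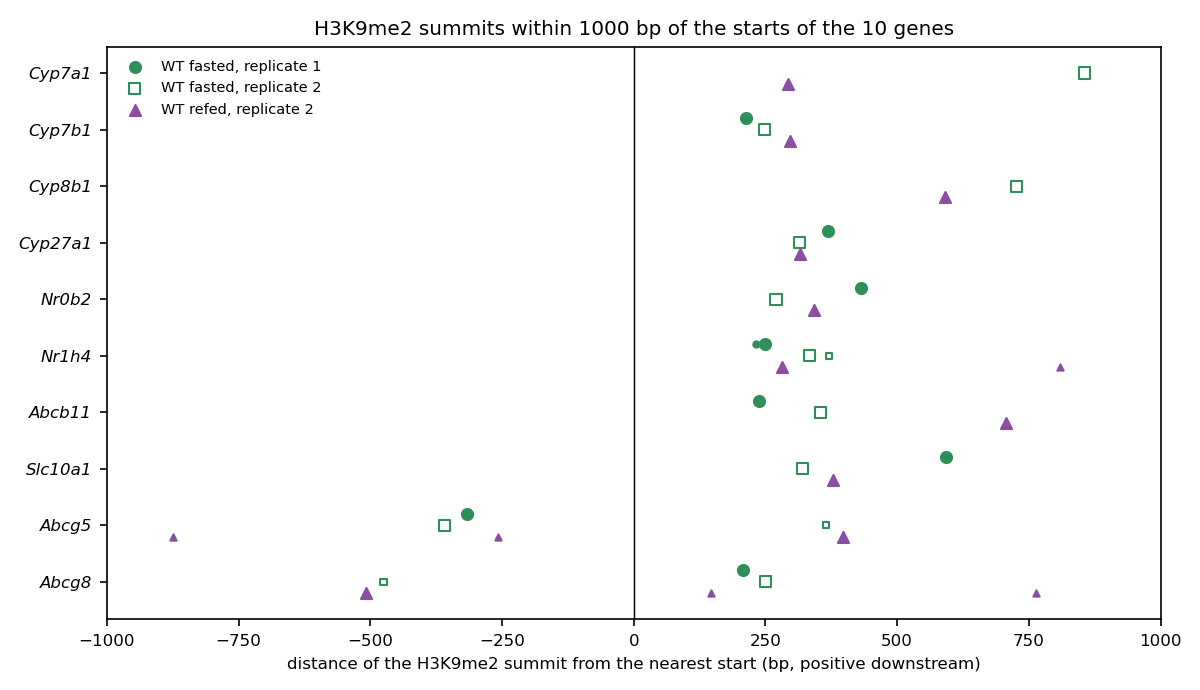
Distance from the nearest RefSeq start, in bp with positive values downstream, of the H3K9me2 summits within 1000 bp of each of the 10 genes in 3 livers. Large symbols are the highest-scoring summit of a gene in a liver and small symbols its other summits. Refed replicate 1 has none and is absent. Most points lie downstream, and Cyp7a1 and Cyp8b1 have no circle. Abcg5 and Abcg8 share their summits, which lie on both sides in fasted replicate 2 and refed replicate 2.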

How the data were processed

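RNA-seq values were deposited by the authors as estimated counts per RefSeq transcript, not scaled, with a fractional part in 65.4% to 65.9% of values. The genome build was mm10. The labels name HISAT2, and a counting tool is not given in the sources used here. Counts were summed per gene, rounded and tested with edgeR 4.0.16 (filterByExpr, TMM, quasi-likelihood) in R 4.3.3, with Benjamini-Hochberg adjustment. DESeq2 1.42.0 was an alternative. The fit was tested on simulated counts with 200 changed genes and an assumed spread between libraries. It recovered 84% of 2-fold and 43.4% of 1.5-fold changes, with 3 false calls. A gene that was not called can therefore still differ by about 1.5-fold. The numbers of the authors' own comparison table (fold changes, p-values) were not used.

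For ATAC-seq and ChIP-seq the authors called peaks in each sample with MACS2 (q-value cutoff 0.05, enrichment of 2-fold for ATAC-seq and 2.5-fold for ChIP-seq over input) after alignment with BWA and, for ChIP-seq, Bowtie2 with single-place reads. They deposited summits with a −log10 q-value score. Depth cannot be read from these lists, so only the rank of a score in its own list was used. A site near a start shared by several genes counted for each.

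The 10 genes and all lists were chosen with earlier results of these data known. Besides the 10 genes and Jmjd1c, each list contributes at most 6 genes past the threshold, by p, and the 3 most abundant below it. Some genes of these lists are not reported here by name, and the list counts include them. Alternatives were RLE scaling, no filter, DESeq2, a replicate block, leaving out each library, the top transcript and a fold limit, and for summits other windows, scores and replicate rules.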

Additional observations from a re-analysis of the deposited data

How the results depend on the processing

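Of the 10 genes, Cyp7a1, Cyp8b1, Cyp27a1, Nr1h4, Abcg5 and Abcg8 kept direction and call under all 10 alternatives, and Abcb11 stayed uncalled. Cyp7b1 and Nr0b2 each kept the call in 6 of 10. Values that changed sign when a library was left out had these ranges: Slc10a1 from -0.306 to 0.0592, Scp2 from -0.0247 to 0.2285, Slco1b2 from -0.0357 to 0.1614, Nr1h3 from -0.0169 to 0.0445, Abca1 from -0.0177 to 0.0912 and Srebf1 from -0.2847 to 0.232. Jmjd1c changed sign with the most abundant transcript (0.0953), and Srebf1 with RLE (0.0002), DESeq2 (0.0007) and the most abundant transcript (0.1186).

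Over all genes, 2066 were higher and 1892 lower. Without WT replicate 1 or 2 these were 789 and 476 or 660 and 408, without JMJD1C-LKO replicate 1 2590 and 2590, with the most abundant transcript 378 and 243, and with a log2 fold change of at least 0.5 1456 and 755. Replicate numbers did not pair the pools (r = -0.005 over 14151 genes), and with the replicate block 2211 were higher and 1996 lower.

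In the lists, leaving out 1 library gave 0 to 4 higher and 0 to 4 lower other synthesis enzymes, 1 to 4 and 1 to 3 other transporters, 1 to 3 and 0 to 4 other regulators, 1 to 5 and 0 to 2 FXR targets, 4 to 7 and 1 to 2 LXR targets, and 2 to 5 and 1 to 4 genes of sterol uptake and esterification. With the most abundant transcript there were 1 synthesis enzyme, 1 transporter, 0 regulators, 2 FXR targets, 4 LXR targets and 2 sterol uptake genes higher, and 0 regulators and 0 sterol uptake genes lower. With a log2 fold change of at least 0.5 there were 0 synthesis enzymes, 1 regulator, 2 FXR targets and 3 sterol uptake genes higher, and 1 regulator lower. With the replicate block 4 synthesis enzymes, 3 transporters and 1 FXR target were lower, and with DESeq2 1 synthesis enzyme was lower. The block changed the call of none of the 10 genes. RLE scaling and no filter left these counts within 1.5 times.

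The fasted H3K9me2 count of 8 genes fell to 1 when every list was reduced to its 1297 strongest summits, and the refed count of 0 rose to 10 with either liver or without replicate 1. Leaving out a liver gave 8 to 10 in the fasted and 0 to 10 in the refed state. ATAC-seq counts were 0 under every alternative run. Depth is unknown for the summit lists, and 2 pools per group limit the precision of each fold change. The cause of these changes was not tested.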
